A study of Caenorhabditis elegans with 4 samples.

Results

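The central and right portion of chromosome IV of the nematode Caenorhabditis elegans carried 873 ChIP-seq peaks of the protein ZIM-3, of 6659 peaks in the list deposited for the whole series. These are the peaks of that list on IV whose midpoint lies above 5000000 on the WormBase build WS220, a rule that uses position alone. They make up 13.1% of the 6646 nuclear peaks, on 12.5% of the nuclear length. They are 58.7% of the 1486 peaks of IV. The lists of the separate replicates place 834 of 6079 peaks (replicate 1) and 195 of 1211 peaks (replicate 2) in the same stretch. Just inside the limit lie the peaks at IV 5035301 to 5035758 (score 10.3) and IV 5038791 to 5038992 (score 6.17). Just outside lie those at IV 4994359 to 4994528 (score 7.01) and IV 4999473 to 4999619 (score 5.76).

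ZIM-3 is a C2H2 zinc finger protein that binds DNA at the pairing centers of chromosomes I and IV, regions near 1 end of each through which homologous chromosomes recognise each other and synapse in meiosis. The pairing center of IV lies towards its left end, so the stretch described here is the remainder of a chromosome that ZIM-3 serves. C. elegans autosomes have gene-rich centers with little recombination and arms that are richer in repeats and recombine more. The chromosomes have no single localized centromere.

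The group consists of 2 ChIP samples (replicates 1 and 2) of the strain fem-2(b245), genotype fem-2(b245)III, labelled as hermaphrodite young adults with a germline and kept at 20 °C; the growth protocol calls them gravid. The fem-2 gene acts in sex determination and is needed for sperm production, and every sample carries its b245 allele. An affinity-purified polyclonal rabbit antibody (SDQ3949) was used on extract of ground whole animals, fixed in 1% formaldehyde for 10 minutes, from large synchronized cultures, which mixes germline and somatic nuclei. The 2 matching input DNA samples have no peak list here, and no wild-type strain, zim-3 mutant or other antibody was part of the design. Whether replicates 1 and 2 stem from different cultures is not labelled, and what separates them may be technical.

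Each peak has a position and a score given by the authors, on a scale that the sources used here do not name. Scores are therefore read within a list. Read counts are not in the lists, so the depth behind a peak is unknown. Peaks are regions of 1 genome and not replicates, and all comparisons below are descriptions without a test. Values of IV are set beside the spread over the other 5 chromosomes. The largest cluster of peaks in the stretch, near 6.67 Mb, has peaks of replicate 2 and none of replicate 1. The replicates also differ at other sites of the stretch, as given below. The main values that rest on replicate 2 are also given without the cluster near 6.67 Mb. Such values leave out this cluster of IV alone, and the other chromosomes keep all their clusters. No genome or annotation of build WS220 was used here, so sites are named by position and not by gene or sequence.

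The stretch held 69.9 series-wide peaks per Mb, against 57.5 per Mb beyond 5 Mb on the other 5 chromosomes together. Chromosome I, the other chromosome whose pairing center ZIM-3 binds, was higher at 73.1 per Mb. It is part of the other 5, and nothing of it beyond 5 Mb was left out as a pairing center. Pairing center peaks of I that lie beyond 5 Mb are thus counted, while the pairing center of IV, towards its left end, is not. The comparison with I, and with the other 5 together, is unlike in this respect. The others ran down to 37.2 per Mb on X, so IV ranked second of 6. In replicate 1 it ranked first, with 66.8 per Mb against 52.5 on the other 5 together and 60.8 on I, the next highest. In replicate 2 it also ranked first, with 15.6 per Mb against 11.2, and chromosome III followed with 15.03. Without the cluster near 6.67 Mb, replicate 2 gave 12.5 per Mb on IV, below III and I, which had 13.0. Chromosome III kept its own cluster at III 7405269 to 7453117, with 35 of its 132 replicate 2 peaks beyond 5 Mb. The ratio of IV to the other 5 was 1.22 in the series-wide list, 1.27 in replicate 1 and 1.40 in replicate 2. Leaving out the cluster made it 1.15 in the series-wide list and 1.12 in replicate 2. In each list IV thus had more peaks per Mb than the other 5 together, with or without the cluster, while single chromosomes (I, or I and III) passed it in some of these settings.

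**Figure D1:**
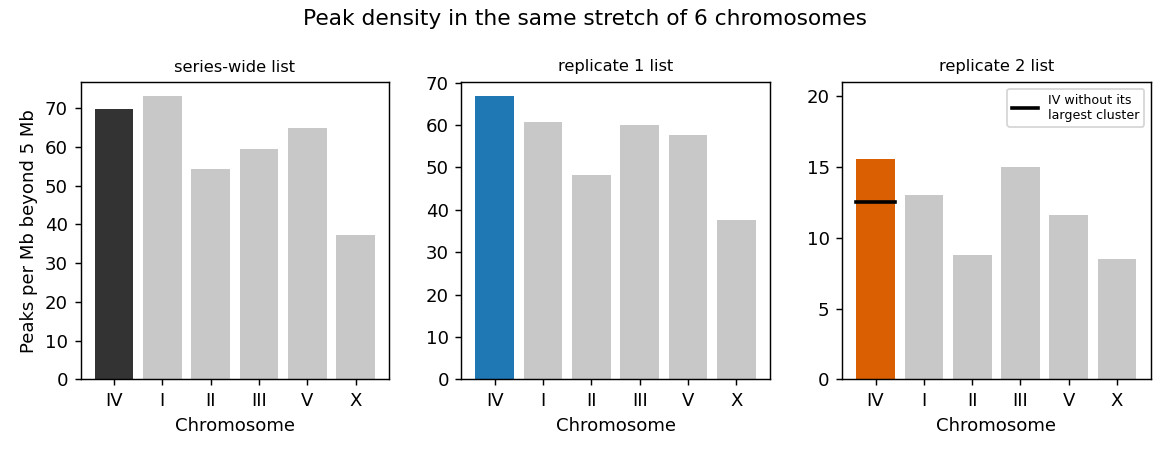
Peaks per Mb beyond 5 Mb (vertical axis) on each of the 6 nuclear chromosomes (horizontal axis), 1 panel per peak list, with IV coloured and the others grey. IV reaches 69.9, 66.8 and 15.6 peaks per Mb in the series-wide, replicate 1 and replicate 2 lists, and the black line marks 12.5 for replicate 2 without the largest cluster.

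Measured by covered bases, peaks took up 3.46% of the stretch on IV in the series-wide list, against 2.83% on the other 5 together. The nearest was chromosome I with 3.43%. In replicate 1 the share was 3.13% on IV, against 2.53% on the other 5 together. Chromosome III lay above IV there, with 3.17%. In replicate 2 it was 1.01% on IV, against 0.928% on the other 5 together, and I (1.30%) and III (1.22%) lay above it. Without the cluster near 6.67 Mb replicate 2 covered 0.836% on IV, below the other 5 together, a ratio of 0.90 where the whole list gave 1.08. By covered bases IV was therefore above the other 5 together in the series-wide list and in replicate 1, and in replicate 2 only with that cluster. The other 5 kept their own clusters in this comparison.

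Along the stretch, the series-wide peaks were thinnest from 10 to 11 Mb and most frequent from 15 to 17 Mb. The right arm is taken here as the last 30% of the chromosome, from 12.2 Mb on, and the center as the piece from 5 Mb to there. The right arm held 459 peaks (87.5 per Mb) and the center 414 peaks (57.1 per Mb), a ratio of 1.53. Replicate 1 gave 88.4 per Mb in the right arm and 51.1 in the center, a ratio of 1.73. Replicate 2 gave 18.3 in the right arm and 13.7 in the center, a ratio of 1.34. Without the cluster near 6.67 Mb, which lies in the center, the ratio was 1.74 in the series-wide list and 2.21 in replicate 2. The right arm was the denser piece in every list. The same ratio on the other chromosomes ran from 1.35 on V to 2.53 on II in the series-wide list, so the value on IV lies within their range.

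By bins of 1 Mb, the highest series-wide counts were 113 peaks from 16 to 17 Mb and 110 from 15 to 16 Mb. The lowest was 26 peaks from 10 to 11 Mb. Replicate 1 had its 2 highest bins in the same places, with 117 peaks from 15 to 16 Mb and 112 from 16 to 17 Mb, and its lowest, with 28, from 10 to 11 Mb. In replicate 2 the bin from 10 to 11 Mb was again the lowest, with 4 peaks, and the bin from 15 to 16 Mb held 31. Its highest bin was another, from 6 to 7 Mb, with 45 peaks, where replicate 1 had 46 and the series-wide list 95. That bin contains the cluster near 6.67 Mb. The densest 2 bins differed in score: the median series-wide score was 8.83 from 15 to 16 Mb and 7.01 from 16 to 17 Mb. The highest median score, 10.8, was in the bin from 13 to 14 Mb, where 17 of 84 peaks overlapped peaks of both replicates.

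**Figure D2:**
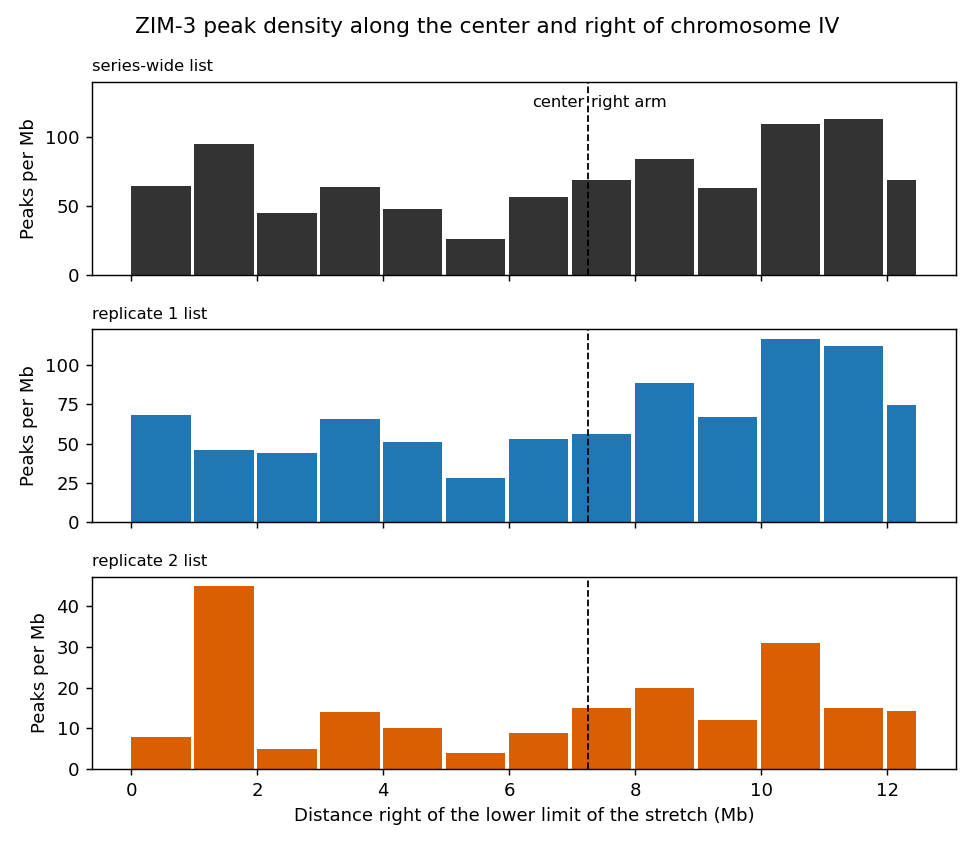
Peaks per Mb (vertical axis) in bins of 1 Mb along the stretch, placed by distance from its lower limit (horizontal axis, Mb), for the series-wide list and both replicate lists. The dashed line separates the center from the right arm. The 3 lists share the minimum between 5 and 6 Mb from the limit and high bins beyond 10 Mb, and the second bin is high in replicate 2.

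Stretches without peaks were long in the center. Neighbouring series-wide peaks were separated by a median of 3.40 kb, with quartiles of 0.526 and 16.9 kb. On the other chromosomes the median ran from 2.74 kb on V to 10.2 kb on X. The longest empty stretch ran from IV 10323774 to IV 10548596, or 225 kb. No peak of either replicate list lay in it. Gaps of 100 kb or more numbered 15 on IV, against 8 on I and 27 on X, the lowest and highest counts of the other 5. At the other end, 305 of 872 gaps (34.98%) were 1 kb or shorter.

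Most peaks were narrow and low. Series-wide widths on IV ran from 146 to 6545 bp, with a median of 296 bp and quartiles of 204 and 485 bp. The other 5 chromosomes had medians from 268 bp on I to 292.5 bp on III. Series-wide scores on IV ran from 1.44 to 93.7, with a median of 7.89 and quartiles of 4.96 and 15.2. The median score of the other chromosomes ran from 7.01 on II to 8.32 on X. In the right arm the median width was 289 bp and the median score 8.57, and in the center they were 312 bp and 7.46. Without the cluster near 6.67 Mb, the median score of the stretch was 8.41.

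The replicate lists ranked the peaks of IV differently in width and score. In replicate 1 the median width was 308 bp on IV, against 276 bp (X) to 312 bp (V) on the other chromosomes. Its median score was 142 on IV, against 119 (X) to 143 (V). In replicate 2 the median width was 395 bp on IV, against 412 bp (V) to 550 bp (III), and the median score 127 on IV, against 130.2 (II) to 250.4 (I). IV thus ranked second of 6 on both in replicate 1 and last on both in replicate 2. Leaving out the cluster near 6.67 Mb gave 388.5 bp, still below the others, and a median score of 144, within their range.

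In the series-wide list, high peaks took a slightly larger share of IV than of the other 5 together, within the range of single chromosomes. A series-wide score of 13.7 or more puts a peak in the upper 25% of all nuclear peaks. On IV 249 peaks (28.5%) reached it, against 24.9% on the other 5 together, where the shares ran from 22.8% on II to 29.2% on X. The upper 10% begins at 25.9 and held 109 peaks (12.5%) of the stretch, against 9.97% on the other 5 together and 13.95% on X. It held 70 peaks (15.3%) of the right arm and 39 (9.42%) of the center. The 50 highest nuclear peaks of the series included 4 from the stretch and 6 from the part of IV up to 5 Mb, and the 100 highest included 8 and 7. Peaks at 3100 or more, the level at which many replicate scores coincide, made up 2.04% of replicate 1's peaks on IV, against 1.94% on the other 5 together. In replicate 2 the order was the opposite, with 2.56% on IV against 5.88% on the other 5 together, and 3.21% on IV without the cluster near 6.67 Mb.

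Peaks of 1 kb or more numbered 97 on IV beyond 5 Mb, or 11.1% of the peaks there. Over all nuclear peaks the share was 9.09%, and on the other chromosomes it ran from 7.61% on I to 11.0% on V. Replicate 1 had 9.83% on IV, within the range of 6.37% (I) to 10.8% (III) on the others. Replicate 2 had 13.8% on IV, or 15.4% without the cluster near 6.67 Mb, both below the lowest of the others, 18.4% on V. These 97 peaks made up 40.6% of all bases that the 873 peaks cover. They were denser in the right arm, with 11.1 per Mb, than in the center, with 5.38 per Mb. Their median score was 35.02, against 7.01 for the narrower peaks. Over the 873 peaks, width and score were related by a Spearman's rho of 0.65, across peaks of 1 list, which share its libraries.

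**Figure D3:**
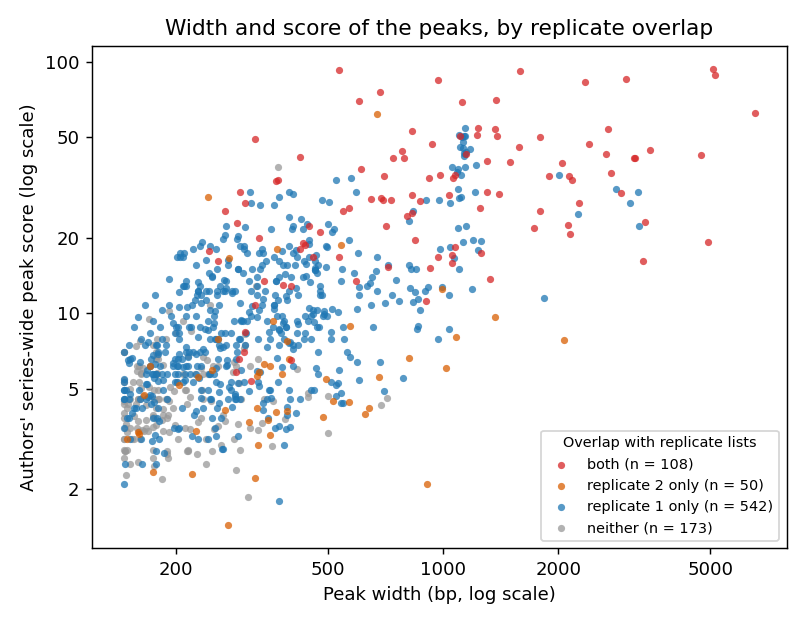
Authors' series-wide score (vertical axis, log scale) against width in bp (horizontal axis, log scale) for the 873 peaks, coloured by the replicate lists they overlap. The 108 peaks found in both replicates lie mostly towards the upper right, with a median width of 930.5 bp and a median score of 29.6.

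Most of the peaks had a counterpart in replicate 1 and few in replicate 2. By at least 1 shared bp, 650 of 873 overlapped a peak of replicate 1 (74.5%, Wilson 95% interval 71.5% to 77.2%), against 72.5% of all nuclear peaks. A peak of replicate 2 was overlapped by 158 (18.1%, interval 15.7% to 20.8%), against 14.0% of all nuclear peaks. These intervals cover counting error only, and neighbouring peaks are not independent. Without the cluster near 6.67 Mb the share for replicate 2 was 14.7%, close to that of all nuclear peaks.

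Split into classes, 108 peaks (12.4%) overlapped peaks of both replicates, against 10.6% of all nuclear peaks and 9.14% (II) to 12.7% (X) on the other chromosomes. A further 542 (62.1%) overlapped replicate 1 only, against 62.0% of all nuclear peaks. Replicate 2 only was overlapped by 50 (5.73%), against 3.40% of all nuclear peaks. Of these 50, 37 belonged to the cluster near 6.67 Mb, and without it the share was 1.58%. The remaining 173 (19.8%) overlapped neither list, against 24.1% of all nuclear peaks and 19.7% (III) to 27.9% (I) on the other chromosomes. The shares for both, replicate 1 only and neither thus fell within the range of the other 5. With its cluster, so did that for replicate 2 only, which reached 6.13% on X. Without the cluster it lay below their lowest share, 1.92% on III. Clusters of the other chromosomes were not left out, such as V 6071407 to 6095741, with 15 of the 39 such peaks of V.

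Peaks in both replicates were the high and wide ones. Their median score was 29.6 and their median width 930.5 bp, against 33.1 and 998.5 bp for such peaks on the other 5 chromosomes together. Peaks in replicate 1 only had a median score of 9.10 and a median width of 304 bp. For peaks in replicate 2 only these were 5.55 and 352 bp, and for peaks in neither list 4.48 and 185 bp. In the upper 25% of scores 96 of 249 peaks (38.6%) were in both replicates, against 38.0% on the other 5 together. In the lowest 25% 0 of 207 were, which allows a share of up to 1.82% (Wilson 95% bound), and on the other 5 together 0 of 826. Of these low peaks 106 (51.2%) overlapped neither list, against 55.2% on the other 5 together, and of the high ones 1 did, against 6 of 827. In this the stretch was close to the other chromosomes. Of the 97 peaks of 1 kb or more, 50 (51.5%) were in both replicates, against 7.47% of the narrower ones, and a wide peak is more likely to share a base with another. Over all nuclear peaks of any width the share was 10.6%. That of wide peaks on the other chromosomes is not given here, so 51.5% is not read as a trait of IV. Peaks in both replicates had 12.8 per Mb in the right arm and 5.66 per Mb in the center.

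Read from the replicate lists, 136 of the 195 peaks of replicate 2 in the stretch (69.7%, Wilson interval 63.0% to 75.8%) met a peak of replicate 1, against 76.8% of its whole list. Leaving out the cluster near 6.67 Mb gave 136 of 156 (87.2%, interval 81.0% to 91.5%). On the other chromosomes the share ran from 66.7% on X to 91.7% on III. Of the 834 peaks of replicate 1, 135 (16.2%) overlapped a peak of replicate 2, against 13.8% of its whole list. The series-wide list covered 727 of the 834 (87.2%) and 190 of the 195 (97.4%). The highest peak of replicate 1 that it lacks is at IV 13658043 to 13658384, with a replicate 1 score of 119.55.

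The 10 highest series-wide peaks of the stretch all overlapped peaks of both replicates. Of these 10, 6 lay in the right arm and 4 in the center, and they were between 535 and 5145 bp wide. The highest, at IV 12314337 to 12319414 near the inner border of the right arm, was 5078 bp wide with a series-wide score of 93.7, and ranked 23 among all nuclear peaks. Replicate 1 gave it 3100 and replicate 2 gave 3100 for the higher of 2 overlapping peaks. Peaks that share this value have no order among themselves. In the stretch 17 peaks of replicate 1 reached 3100 or more and 5 of replicate 2 stood at 3100.

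The second peak, at IV 15409261 to 15409795, was narrow at 535 bp and scored 92.3. Its replicate scores were 1157 in replicate 1 and 1274 in replicate 2. The third, at IV 13360413 to 13362006, was 1594 bp wide and scored 91.4, with 3100 in both replicates. Next came 2 peaks of the center, at IV 11070812 to 11075956 (5145 bp, score 88.5) and IV 9045712 to 9048725 (3014 bp, score 85.3). Each of these stood at 3100 in both replicate lists. In both replicate lists 4 of these 5 sites thus stood at 3100. The sites were picked by the series-wide score, which may favour sites high in both replicates. These counts therefore do not measure how well the replicates match.

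The sixth site, at IV 6468883 to 6469849, scored 84.5 series-wide, 3212 in replicate 1 and 1614 in replicate 2. The seventh, at IV 12730402 to 12732756, scored 82.8, with 3100 in replicate 1 and 2096 in replicate 2. The eighth, at IV 10945555 to 10946238, scored 75.8, with 1426 in replicate 1 and 1485 in replicate 2. At the ninth, IV 14779132 to 14780509, the scores were 70.4 series-wide, 2619 in replicate 1 and 2096 in replicate 2. The tenth, at IV 12891242 to 12891845, scored 70.0, with 431 in replicate 1 and 1749.7 in replicate 2, the widest relative gap among the 10. The fifth site of the center, at IV 11238864 to 11239982 (score 69.0), showed the opposite pattern, with 3100 in replicate 1 and 89.2 in replicate 2. Of the 10 highest sites, 6 lay between IV 10945555 and IV 13362006, a stretch that includes the border of center and right arm.

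Among the 50 highest peaks of the stretch, 31 lay in the right arm, 36 overlapped both replicates and 0 overlapped neither. Over all nuclear peaks of any score, 10.6% overlapped both and 24.1% neither, and equally high peaks of other chromosomes were not set beside these counts. The highest peak in replicate 1 only was at IV 7524388 to 7525530, with a series-wide score of 54.5 and a replicate 1 score of 3197. The highest in replicate 2 only was at IV 12637916 to 12638586, with a series-wide score of 62.0 and a replicate 2 score of 2127. The highest peak without a counterpart in either list was the last of the chromosome, at IV 17493447 to 17493816, with a score of 38.2. Its neighbour at IV 17492254 to 17492993 scored 41.3 and overlapped both replicates, with 874 in replicate 1 and 253 as the higher of 2 peaks in replicate 2. The right tip of IV thus carried a pair of peaks in the upper 10% of the series by score. Series-wide peaks also reached the last position of any list on III and X, in clusters that end at III 13783723 and X 17718889. Peaks at the tip are therefore not read as a trait of IV, and an effect of chromosome ends was not tested.

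The widest peak, at IV 8575195 to 8581739, spanned 6545 bp and scored 62.2. Each replicate overlapped it with 3 peaks, the highest of which scored 1251 in replicate 1 and 3100 in replicate 2. Next in width were the peaks at IV 11070812 and IV 12314337, the fourth and the first by score. In replicate 1's own list the highest scores were 3222 at IV 15188291 to 15190633, 3212 at IV 6468928 to 6469847 and 3197 at IV 7524347 to 7525584. Then followed 3178 at IV 13915478 to 13916724 and 3107 at IV 7596630 to 7598924. Of these 5, the third and the fourth had no overlapping peak in replicate 2, and the fifth had one with a score of 153. The 5 peaks of replicate 2 at 3100 began at IV 8578210, 9045739, 11070850, 12316252 and 13360416, and each overlapped a replicate 1 peak. At the first of them the higher of 2 replicate 1 peaks scored 683, and at the other 4 replicate 1 stood at 3100.

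Over the 91 peaks of the stretch that overlapped 1 to 1 between the replicates, Spearman's rho of the scores was 0.13, and Pearson's r of their log10 values was 0.23. The 81 pairs with both scores below 3100 gave a rho of 0.04. On the other 5 chromosomes together it was 0.36 for 297 pairs, and 0.14 for the 253 of them below 3100. These are descriptions across peaks that share their 2 libraries. The replicate 1 score was the higher of the pair at 62 sites and the replicate 2 score at 26, and whether both lists score on 1 scale is not known. At 3 of the 91 pairs both lists gave 3100 or more.

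**Figure D4:**
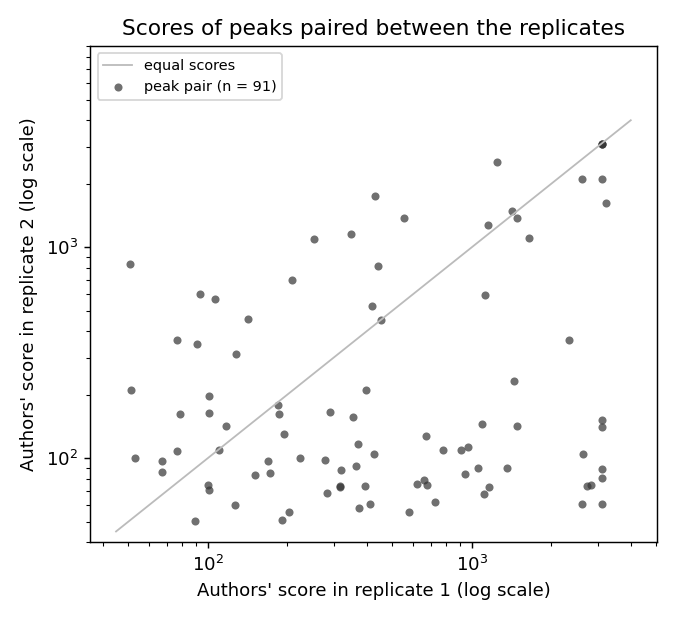
Authors' score in replicate 2 (vertical axis, log scale) against that in replicate 1 (horizontal axis, log scale) for the 91 peaks of the stretch paired 1 to 1, with a grey line of equal scores. The points scatter widely (Spearman's rho 0.13), and 62 of them lie below the line.

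Many peaks gathered in clusters, with none between IV 9068318 and IV 11400257, where 90 peaks lay. Here a cluster is a chain of at least 5 series-wide peaks with gaps of 10 kb or less. There were 47 clusters on IV beyond 5 Mb, with 399 peaks or 45.7% of the 873, while 120 peaks stood alone. The share in clusters ran from 20.7% on X to 54.6% on I on the other chromosomes. The right arm held 30 clusters (5.72 per Mb) and the center 17 (2.35 per Mb). Clusters had a median of 7 peaks and a median span of 17.3 kb. Peaks of both replicate lists were present in 28 clusters, and 18 had no replicate 2 peak. Clusters without a replicate 2 peak also occurred on each of the other 5 chromosomes, and 14.0% of all nuclear peaks overlapped that list. Outside the largest cluster, 13.1% of 350 clustered peaks were in both replicates and 10.8% of the 120 single ones, with median scores of 7.01 and 9.09.

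The largest cluster ran from IV 6668798 to IV 6732143, a span of 63.3 kb, and was made of peaks of the series-wide list and of replicate 2. It held 49 series-wide peaks, 5.61% of the 873, which covered 34.8% of its bases. Replicate 2 had 39 peaks there, or 20.0% of its peaks in the stretch, which covered 34.3%. Replicate 1 had 0. Of the 49 peaks 37 overlapped a replicate 2 peak and 12 overlapped neither list. It stood isolated: the nearest series-wide peaks outside lay 112 kb to the left and 90.8 kb to the right. In replicate 2 the nearest lay 199 kb to the left and 709 kb to the right. Replicate 1's nearest peaks lay 117 kb to the left and 42.7 kb to the right.

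Scores in the cluster were low by their medians. In the series-wide list they ran from 1.44 to 9.64 with a median of 4.33, against a median of 8.41 for the other 824 peaks. The highest was at IV 6711132 to 6712496, 1365 bp wide. In replicate 2 they ran from 50.4 to 723 with a median of 95.6, against a median of 144 for its other 156 peaks of the stretch. The highest was at IV 6717442 to 6719728, 2287 bp wide, and 0 of the 39 stood at 3100. Neighbouring series-wide peaks in the cluster were separated by a median of 373 bp, against 3913 bp among the other peaks of the stretch. The largest gap inside was 8.96 kb, from IV 6675334 to IV 6684290. The input samples were not analysed here, and what sets the replicates apart at this cluster was not tested.

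**Figure D5:**
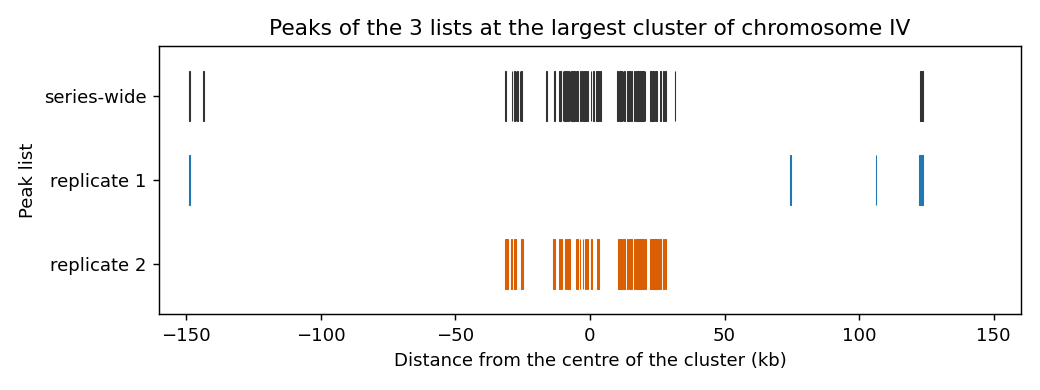
Peaks of the 3 lists (rows) at the largest cluster, drawn as bars to scale by distance from its centre in kb (horizontal axis). The series-wide list and replicate 2 fill a block of about the same extent with 49 and 39 peaks, and replicate 1 has 0 peaks inside it.

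Most other clusters of IV had more peaks of replicate 1, whose list is the longer one. In the stretch it has 834 peaks against 195 of replicate 2, of which 156 lie outside the largest cluster. The next 3 by size had 15 series-wide peaks each. That at IV 8389168 to 8428817 overlapped 9 peaks of replicate 1 and 1 of replicate 2, with a highest series-wide score of 30.3. The one at IV 16233228 to 16268526 had 11 of replicate 1 and 1 of replicate 2, with a highest score of 9.80. The third, at IV 16730128 to 16776144, had 15 of replicate 1 and 0 of replicate 2, with a highest score of 30.4. A cluster of 13 peaks at IV 5238432 to 5265917 had 12 of replicate 1 and 2 of replicate 2. Of the 47 clusters, the largest was the single one without a replicate 1 peak, and 2 had more peaks of replicate 2 than of replicate 1.

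On the other 5 chromosomes 3 of 175 such clusters had no replicate 1 peak, each with 5 series-wide peaks. They lay at V 6167236 to 6183253, V 14586710 to 14590569 and X 16929543 to 16935818, with 8, 6 and 7 peaks of replicate 2. More peaks of replicate 2 than of replicate 1 were found in 14 of the 175. Of these 14, the one with most series-wide peaks, at V 6071407 to 6095741, had 24 of them, with 24 peaks of replicate 2 and 5 of replicate 1. The largest cluster of the other 5, at V 8809387 to 8898477, had 60 series-wide peaks with a median score of 5.625. It held 40 peaks of replicate 1 and 0 of replicate 2. A large cluster of low median score with peaks of 1 replicate alone thus also occurred on V, but there the replicate was 1, whose list is the longer. Clusters with replicate 2 peaks and none of replicate 1 had 5 series-wide peaks each on the other 5 chromosomes, against 49 on IV.

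In windows of 100 kb, the median was 5 series-wide peaks, and 7 of 125 windows held none. The densest windows were IV 6600001 to 6700000 with 25 peaks and IV 6700001 to 6800000 with 24, both from the largest cluster. The third, IV 15700001 to 15800000 with 22 peaks, was the densest of replicate 1, which had 24 there against 3 in replicate 2. In replicate 2's list the densest was IV 6700001 to 6800000 with 20 peaks, where replicate 1 had 1, and 58 of 125 windows held none. Between the window counts of the replicates, Spearman's rho was 0.40 and Pearson's r 0.19 over 125 windows of the same chromosome. Without the 2 windows of the largest cluster these were 0.46 and 0.54 over 123 windows.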

How the data were processed

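The authors deposited 3 peak lists, 1 per ChIP replicate and 1 for the whole series, in which a peak is given by its coordinates with a score. The build is WormBase WS220, per the file headers, and the lists name MACS (replicates) and MACS v2 (series-wide) as callers. The submitters' processing notes name BWA and ce10, without versions. Parameters, controls, filters, the scale of the score and the way replicates were combined are not given in the sources used here. A caller's local background and depth decide which sites become peaks, so a longer list need not mean more binding.

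Lists were compared with Python 3.11.15, numpy 2.4.6, pandas 2.3.3 and scipy 1.17.1, and plotted with matplotlib 3.10.9. Peaks were placed by midpoint. Chromosome length was the largest peak end over the 3 lists. Overlap meant at least 1 shared bp. Overlap, chaining and coverage functions were tested on simulated data. No test was run across chromosomes or peaks. Sites named were the 10 highest peaks, the 5 highest of each piece and of each replicate list, the 3 widest, the 5 largest clusters, the densest window of each list, the highest peak of each overlap class, the longest gap and the peaks next to 5 Mb, with ties by start. The highest peaks of the single-replicate classes and the right tip were added after their values were seen. Members, settings and lists were chosen with earlier results of these data known. Sequence motifs and genes were not analysed here.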

Additional observations from a re-analysis of the deposited data

How the results depend on the processing

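Of 43 alternative values, 14 moved beyond the spread used for comparison and 1 turned direction. That spread was 1 SD between the replicate lists for ratios, the 95% interval for shares and medians, and 1.5 times for counts. Since the replicate lists set the spread of the ratios, a ratio that stayed within it is not thereby shown to be stable. The density of IV over the other 5 chromosomes, 1.22, became 1.39 in the upper 25% of scores and 1.12 in replicate 2's list without the largest cluster; single replicate lists gave 1.27 to 1.40. By covered bases it was 1.08 in replicate 2's list and turned to 0.90 there without the largest cluster of IV, with those of the other chromosomes kept. The right arm to center ratio, 1.53, became 2.21 in replicate 2's list without that cluster. The share of peaks in both replicates, 12.4%, became 6.87% with reciprocal overlap of 50%, 7.67% with midpoints within 200 bp, 22.0% in the upper 50% and 38.6% in the upper 25% of scores; asking for a single replicate gave 18.1% to 74.5%. Peaks in both replicates had a median width of 930.5 bp and a median score of 29.6, against 296 bp and 7.89 for all. The densest window held 25 peaks at 100 kb and 49 at 200 kb, and 20 to 24 in single replicate lists, where it was another window (IV 15700001 in replicate 1, IV 6700001 in replicate 2). Clusters numbered 39 with gaps of 5 kb and 64 with 20 kb, against 47. Settings that leave out the largest cluster, those that ask for 1 replicate and those by covered bases of a replicate list were chosen after seeing the data. What caused the changes was not tested, except that stricter overlap, higher scores and wider windows change the count by construction. With depth unknown, a site that lacks a peak may still be bound. No paired analysis was possible because lists of only 1 group, the ChIP samples, were at hand.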

Other observations

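A group of high peaks in the stretch is described here by limits on width and score. It was noticed in the plot of width and score and is described with no test, since its limits were chosen after the values were seen. Between 1 and 1.2 kb wide with a series-wide score above 25 there were 28 peaks, with a median width of 1118 bp and series-wide scores from 27.5 to 69.0. They were spread singly along the stretch, 18 in the right arm and 10 in the center, and neighbours began at least 40.5 kb apart. All 28 overlapped a replicate 1 peak, with replicate 1 scores from 496 to 3197 and a median of 2603, and 20 scored 2000 or more there. In replicate 2, 6 of the 28 (21.4%) had a counterpart, with scores from 74.3 to 275, and 22 had none. Of the 86 other peaks of the stretch above the same series-wide score, 64 (74.4%) overlapped replicate 2, and of the 39 among them that were 1 kb or wider, 33 (84.6%) did. Over all nuclear peaks of any score it was 14.0%, and the share of such high peaks on the other chromosomes is not given here. Examples without a replicate 2 counterpart are IV 9502758 to 9503856 (1099 bp, score 51.0), IV 14116881 to 14118022 (1142 bp, score 50.9) and IV 17218407 to 17219548 (1142 bp, score 38.1).

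Peaks of this width and score occurred at 2.24 per Mb on IV beyond 5 Mb and at 1.11 per Mb on the other 5 chromosomes together, which held 64. The limits were chosen on the peaks of IV, which favours a higher value there. This contrast is therefore not read as a trait of IV. Among those chromosomes V had the most, with 27 or 1.70 per Mb, and X the fewest, with 8 or 0.629 per Mb. On the other 5 chromosomes 41 of the 64 had no replicate 2 counterpart, and their median width was 1131 bp. Whether these peaks share a sequence was not analysed here.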
